A study of Mus musculus with 4 samples.

Results

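The small RNA processing and Argonaute genes are 9 genes whose products make and use microRNAs and small interfering RNAs: Drosha and Dgcr8, Xpo5, Dicer1 and Tarbp2, Ago1 and Ago2, Tnrc6a, and Lin28b. They were chosen by name, with the older names of the Argonautes included, as the locus of highest mean level for each symbol, and all 9 were found among 23697 loci, each as 1 locus. RNA was measured by sequencing in WW6 mouse embryonic stem cells, a line of mixed C57/B6J, 129/Sv and SJL background grown without feeder cells. The knockdown group, 2 libraries named A and B, was transfected 24 hours after seeding with small interfering RNA (siRNA) against Kdm5b, a demethylase of lysine 4 of histone H3. The control group, also libraries A and B, received siRNA against GFP per the treatment protocol, while the sample characteristics speak of a mock control construct. Both groups went through the same transfection with Lipofectamine LTX. The time from transfection to harvest is not given in the sources used here. Nothing in the labels tells whether the A and B libraries of a group came from different cultures, so the spread behind each p-value may be technical.

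In this pathway the nuclease Drosha and its RNA-binding partner Dgcr8, together the Microprocessor, cut hairpins out of primary transcripts in the nucleus. Exportin-5, made from Xpo5, carries the hairpins to the cytoplasm, where Dicer with its partner Tarbp2 trims them to short duplexes. An Argonaute protein keeps one strand as a guide, and Tnrc6 proteins connect it to the enzymes that repress and degrade target RNA. Of the Argonautes found in most mouse tissues, Ago2 is the one known for cutting a fully matched target, the step on which most siRNA knockdowns rest. Embryonic stem cells are known for the abundant microRNAs of the miR-290 and miR-302 clusters and for Lin28 proteins, which hold back the maturation of let-7.

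The values were FPKM, which count fragments relative to transcript length and library size, so levels of different genes can be set side by side per length. From the steps between low values, 1 FPKM in a transcript of 2000 bp stood for an estimated 5.78 and 7.51 fragments in knockdown A and B and 7.78 and 7.6 in control A and B. Knockdown A stood apart: it had 76.0% of the estimated depth of control B and listed 11953 loci at 0, against 8609 in knockdown B and 8131 and 8281 in the controls. Kdm5b stood at 22.7 and 31.1 FPKM in the knockdown libraries, against 99.7 and 145 FPKM in the controls, 22.0% of the control mean. The filter, a mean level of 1 FPKM or more, left 11784 loci; limma called 4 of them lower and 0 higher in knockdown at an adjusted p under 0.05, and 290 had an unadjusted p under 0.05. Kdm5b itself had a limma adjusted p of 0.562. The stem cell genes Pou5f1, Sox2 and Nanog stood between 161 and 1259 FPKM in every library. Summed over 7 fibroblast markers the level was 0.258 and 1.85 FPKM in knockdowns A and B and 9.31 and 2.92 FPKM in control A and B. Most of the control A sum was Acta2, at 6.48 FPKM, and Thy1, at 2.06 FPKM. Col1a1, Col1a2, Col3a1 and Dcn stood at no more than 0.379 FPKM in any library, and Lum was listed at 0 in every library.

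All 9 genes were measured well above the filter, with means over the 4 libraries between 10.2 and 42.3 FPKM, and none passed the test for a difference between knockdown and control. With limma on log2(FPKM + 1), 0 of 9 were called at an adjusted p under 0.05, where 0.0339% of all tested loci were lower and 0.0% higher, and 0 of 9 had an unadjusted p under 0.05, where 2.46% of loci did. Tarbp2 and Ago1 had both knockdown libraries above both controls, 2 of 9 genes against 15.0% of all tested loci. None had both below, against 16.9% of loci. In these bulk cultures fewer cells with a transcript and less transcript in each cell cannot be told apart. Ordered by mean level the genes ran Xpo5, Drosha, Tarbp2, Dgcr8, Dicer1, Tnrc6a, Lin28b, Ago2 and Ago1. Xpo5 was the highest in each of the 4 libraries, and its range did not touch that of Drosha. Every other pair of neighbours in this order had overlapping ranges over the libraries.

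**Figure D1:**
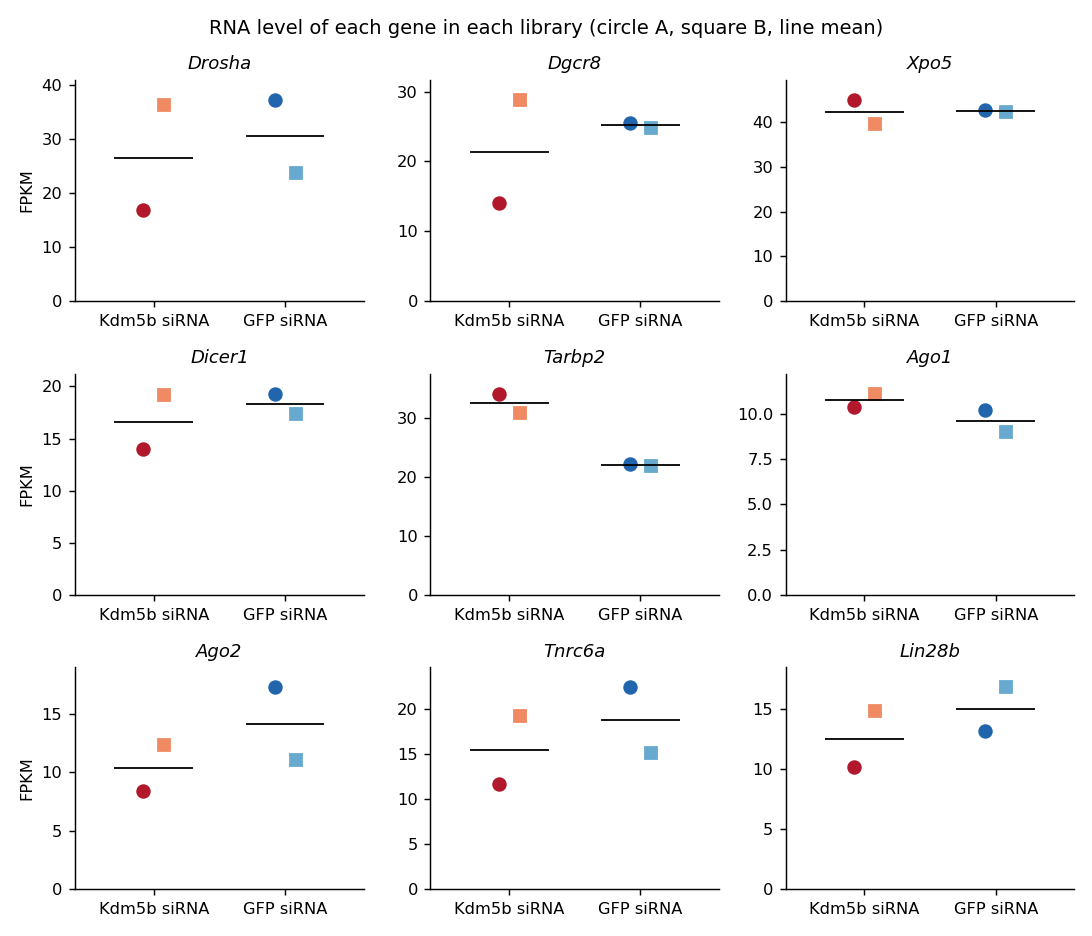
FPKM of the 9 genes in the 2 knockdown libraries (Kdm5b siRNA) and the 2 control libraries (GFP siRNA), one panel a gene, with library A as a circle, library B as a square and the group mean as a line; each vertical axis starts at 0. Only the Tarbp2 and Ago1 panels show groups that do not overlap, and for Drosha, Dgcr8, Dicer1, Ago2, Tnrc6a and Lin28b knockdown A is the lowest of the 4 points.

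The Microprocessor genes had the widest spread between the knockdown libraries. Drosha (NM_001130149 and NM_026799; mm9 chromosome 15, 12754569 to 12865046), the nuclease, stood at 16.9 and 36.2 FPKM in knockdowns A and B, against 37.2 and 23.8 FPKM in control A and B. The knockdown libraries thus lay on both sides of control B, and the means were 26.6 ± 13.7 FPKM in knockdown and 30.5 ± 9.50 FPKM in control (SD, n = 2 each). The log2 fold change was -0.26 (standard error 0.43, 95% interval -1.30 to 0.79, limma adjusted p = 0.937). Dgcr8 (NM_033324; mm9 chromosome 16, 18248975 to 18289261), which binds the hairpin and positions Drosha on it, stood at 14.0 and 28.8 FPKM in knockdowns A and B, against 25.5 and 24.8 FPKM in the controls. The controls lay close together and the knockdown libraries fell on either side of them. The log2 fold change was -0.31 (standard error 0.38, 95% interval -1.23 to 0.62, limma adjusted p = 0.919). Dgcr8 shares its locus interval with Trmt2a, so fragments of the pair may not be fully separated. Set as a ratio within each library, which no scaling of libraries can move, Drosha over Dgcr8 was 1.20 and 1.26 in knockdown A and B, against 1.46 and 0.958 in control A and B. The ratio in the knockdown libraries lay within that of the controls, although both genes differed about as much between knockdown A and B (log2 differences of 1.06 for Drosha and 0.99 for Dgcr8).

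The promoters of 3 genes are shown because they belong to the pair of Microprocessor genes that differed most between the knockdown libraries and to Tarbp2, the gene with the largest fold change. Each is the 250 bases before the RefSeq start of the gene (GRCm38.p6), read 5′ to 3′ on the gene's strand, with CCAAT and GGGCGG or their reverse complements in capitals. Drosha lies at chr15:12824565-12824814 on the plus strand, Dgcr8 at chr16:18289169-18289418 on the minus strand and Tarbp2 at chr15:102517942-102518191 on the plus strand.
Drosha: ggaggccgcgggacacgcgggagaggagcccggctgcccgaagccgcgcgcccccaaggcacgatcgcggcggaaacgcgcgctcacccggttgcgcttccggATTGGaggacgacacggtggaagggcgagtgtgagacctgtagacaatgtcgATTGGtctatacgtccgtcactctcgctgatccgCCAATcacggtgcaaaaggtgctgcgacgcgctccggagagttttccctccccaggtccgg
Dgcr8: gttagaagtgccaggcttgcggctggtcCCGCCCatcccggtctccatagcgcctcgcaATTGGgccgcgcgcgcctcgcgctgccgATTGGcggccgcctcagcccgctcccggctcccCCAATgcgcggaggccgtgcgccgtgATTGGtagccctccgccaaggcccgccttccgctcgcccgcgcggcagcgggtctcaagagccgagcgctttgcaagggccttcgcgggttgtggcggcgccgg
Tarbp2: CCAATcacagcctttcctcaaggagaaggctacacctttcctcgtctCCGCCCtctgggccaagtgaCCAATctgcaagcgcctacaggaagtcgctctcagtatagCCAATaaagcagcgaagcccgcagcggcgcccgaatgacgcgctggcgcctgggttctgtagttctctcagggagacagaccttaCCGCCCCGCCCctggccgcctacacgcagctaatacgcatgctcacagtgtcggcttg
CCAAT, searched on both strands, occurred 3 times in the Drosha, 4 times in the Dgcr8 and 3 times in the Tarbp2 window, and 33.8% of 32851 mouse promoter windows of this length held at least 1. GGGCGG, the GC box, occurred 0, 1 and 3 times in the same order, with a pair in Tarbp2 that overlap, and 32.7% of windows held it. TATAAA was in none of the 3, against 12.4% of windows. CpG dinucleotides numbered 33, 36 and 18, against a median of 6.0 over all windows. Of the 8 genes with an entry, Dicer1 with 39 and Xpo5 with 33 were also rich in CpG, and both windows of Ago1 held 26 and 28, while Tnrc6a had 9 and Lin28b 6. A match describes these letters and is not a measured site of binding.

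Xpo5 (NM_028198; mm9 chromosome 17, 46339803 to 46379248), the nuclear export receptor for hairpins, had the fold change nearest to 0 of the 9. It stood at 44.9 and 39.6 FPKM in knockdowns A and B, against 42.7 and 42.2 FPKM in the controls, from an estimated 729 to 933 fragments in each library. Its mean in knockdown was 99.6% of that in control, and the log2 fold change was -0.0087 (standard error 0.23, limma adjusted p = 0.996). Its 95% interval, -0.58 to 0.56, was the narrowest of the 9 and still allows a change of that size either way. Its locus interval holds Mir693. Ran, the GTPase that drives export by Xpo5, stood at 179 and 151 FPKM in knockdowns A and B, against 132 and 160 FPKM in the controls, with overlapping groups.

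Dicer1 (NM_148948; mm9 chromosome 12, 105925951 to 105990162), the nuclease that makes the final duplex, stood at 14.0 and 19.2 FPKM in knockdowns A and B, against 19.3 and 17.4 FPKM in the controls. Knockdown A was the lowest and knockdown B lay between the controls. The means were 16.6 ± 3.69 FPKM in knockdown and 18.3 ± 1.37 FPKM in control (SD, n = 2 each), with a log2 fold change of -0.15 (standard error 0.30, 95% interval -0.87 to 0.57, limma adjusted p = 0.944).

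Tarbp2 (NM_001253795 and NM_009319; mm9 chromosome 15, 102348622 to 102354107) encodes the double-stranded RNA-binding partner of Dicer that helps load Argonaute. It stood at 34.2 and 31.0 FPKM in knockdowns A and B, against 22.3 and 22.0 FPKM in control A and B. Both knockdown libraries were higher than both controls, at 147% of the control mean (32.6 ± 2.28 FPKM in knockdown and 22.1 ± 0.212 FPKM in control, SD, n = 2 each). The log2 fold change was 0.54 (standard error 0.25, 95% interval -0.07 to 1.14), with an unadjusted limma p of 0.0726 and a limma adjusted p of 0.918, so Tarbp2 did not pass the test. Leaving out any 1 library left the log2 fold change between 0.47 and 0.61. Its transcript is the shortest of the 9, and the values rest on an estimated 142 and 167 fragments in knockdown A and B and 125 and 120 in control A and B. Within each library Tarbp2 over Dicer1 was 2.45 and 1.61 in knockdown A and B, against 1.15 and 1.27 in the controls, which do not overlap. Prkra, the other such partner of Dicer, had overlapping groups: it stood at 8.71 and 12.2 FPKM in knockdowns A and B, against 9.86 and 15.4 FPKM in the controls, with a log2 fold change of -0.24 (standard error 0.36). Tarbp2 over Prkra was 3.93 and 2.55 in knockdown A and B, against 2.26 and 1.43 in the controls. For this ratio, as for every other within-library share or ratio given here, 2 libraries against 2 cannot give an exact two-sided permutation p below 0.333, and where groups do not overlap the value is 0.333.

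The Argonaute genes had the lowest means of the 9 over the 4 libraries, although Lin28b was below Ago1 in knockdown A and below Ago2 in control A. Ago1 (NM_153403; mm9 chromosome 4, 126112256 to 126145665), which binds microRNAs and is not known as an efficient slicer, stood at 10.3 and 11.1 FPKM in knockdowns A and B, against 10.2 and 8.97 FPKM in the controls. The groups did not overlap, by a margin far smaller than the distance between the controls. Its log2 fold change was 0.15 (standard error 0.30, limma adjusted p = 0.947). Ago2 (NM_153178; mm9 chromosome 15, 72932054 to 73015377), the slicer, stood at 8.41 and 12.3 FPKM in knockdowns A and B, against 17.3 and 11.1 FPKM in control A and B. The groups overlapped, because knockdown B lay above control B, and the means were 10.4 ± 2.77 FPKM in knockdown and 14.2 ± 4.41 FPKM in control (SD, n = 2 each). The log2 fold change was -0.41 (standard error 0.37, 95% interval -1.30 to 0.49, limma adjusted p = 0.918), the most negative of the 9.

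The other Argonautes were lower still. Ago3 stood at 2.11 and 3.26 FPKM in knockdowns A and B, against 3.16 and 2.68 FPKM in the controls, with a log2 fold change of -0.10 (standard error 0.47). Ago4 stood at 0.287 and 0.0372 FPKM in knockdowns A and B, against 0.358 and 0.0732 FPKM in the controls, an estimated 6.08, 1.02, 10.2 and 2.04 fragments in that order, and was not tested. Summed over the 4 genes the level was 21.2 and 26.7 FPKM in knockdowns A and B, against 31.0 and 22.8 FPKM in control A and B, with overlapping groups. Ago2 made up 39.8% and 46.2% of this sum in knockdown A and B, against 55.7% and 48.5% in the controls, and Ago1 48.9% and 41.5%, against 32.9% and 39.4%. For both shares the groups did not overlap, with gaps between the nearest libraries that were smaller than the spread within each group.

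**Figure D2:**
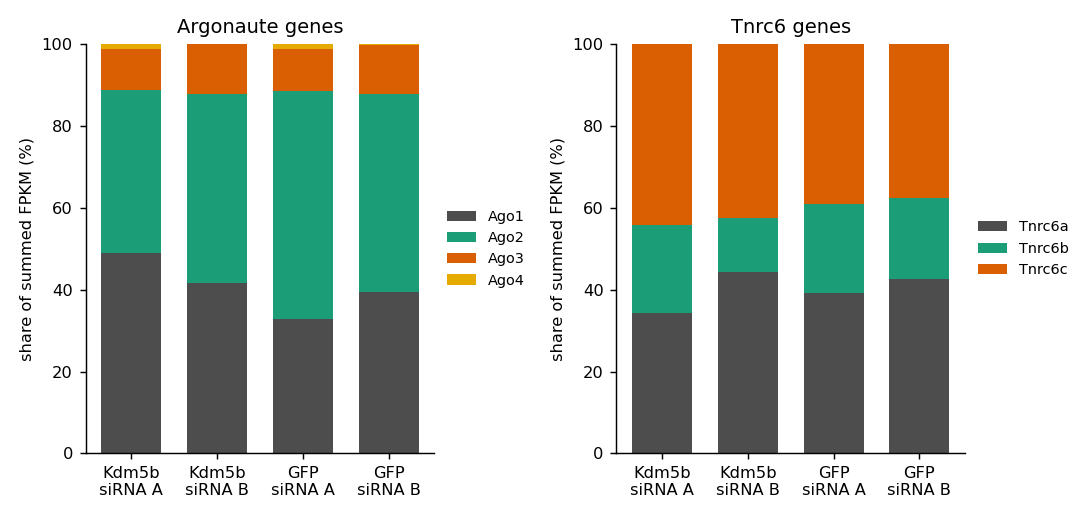
Share of the summed FPKM (percent) taken by each Argonaute gene (left) and each Tnrc6 gene (right) in knockdown A and B (Kdm5b siRNA) and control A and B (GFP siRNA); each bar is 1 library. Ago2 takes 39.8% to 46.2% in knockdown and 48.5% to 55.7% in control, and Ago4 is at most 1.36%.

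Tnrc6a (NM_144925; mm9 chromosome 7, 130267398 to 130338810) encodes GW182, the scaffold that binds Argonaute and recruits deadenylases. It stood at 11.7 and 19.3 FPKM in knockdowns A and B, against 22.5 and 15.1 FPKM in the controls, so each group held 1 high and 1 low library. On the log2 scale the estimate was -0.28 (standard error 0.36, 95% interval -1.17 to 0.61, limma adjusted p = 0.926). Its paralog Tnrc6b stood at 7.41 and 5.86 FPKM in knockdowns A and B, against 12.5 and 6.96 FPKM in the controls, and Tnrc6c at 15.2 and 18.5 FPKM, against 22.3 and 13.4 FPKM. Their log2 fold changes were -0.45 (standard error 0.40) and -0.04 (standard error 0.34). Tnrc6a took 34.2% and 44.2% of the sum of the 3 in knockdown A and B, against 39.2% and 42.7% in the controls, and Tnrc6c 44.2% and 42.4%, against 38.9% and 37.7%. The share of Tnrc6a overlapped between groups and that of Tnrc6c did not. Among the 9 genes, Tnrc6a and Ago2 had the most alike profiles: their log2 values, centred over the 4 libraries, differed by a root mean square of 0.0914. Their ratio, Ago2 over Tnrc6a, was 0.718 and 0.640 in knockdown A and B and 0.770 and 0.731 in the controls.

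Lin28b (NM_001031772; mm9 chromosome 10, 45096424 to 45190007) encodes an RNA-binding protein that blocks the processing of let-7. It stood at 10.1 and 14.8 FPKM in knockdowns A and B, against 13.2 and 16.8 FPKM in the controls, with knockdown B between the controls. For Lin28b the log2 fold change was -0.26 (standard error 0.33, 95% interval -1.06 to 0.54, limma adjusted p = 0.921). Lin28a, the paralog best known from stem cells, was far more abundant, at 105 and 109 FPKM in knockdowns A and B and 124 and 117 FPKM in the controls. Both knockdown libraries were below both controls for Lin28a, but the log2 fold change was -0.17 (standard error 0.21, limma adjusted p = 0.918). Lin28b made up 8.78% and 11.9% of the pair in knockdown A and B, against 9.62% and 12.5% in the controls.

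**Figure D3:**
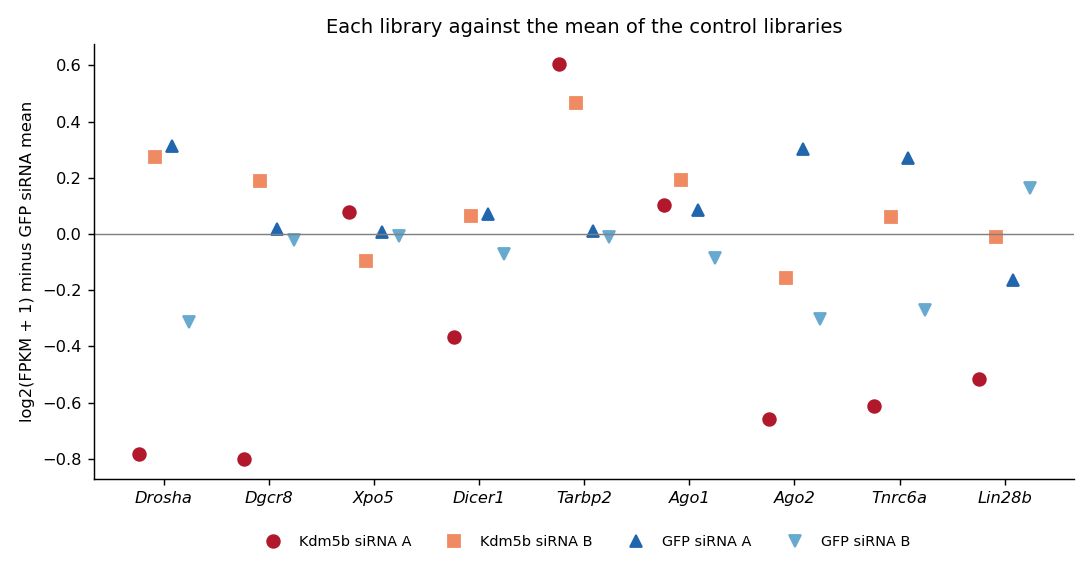
log2(FPKM + 1) of each library minus the mean of the 2 control libraries, for the 9 genes; circles and squares are knockdown A and B (Kdm5b siRNA), triangles control A and B (GFP siRNA). Knockdown A lies between -0.80 and -0.37 for 6 genes and at 0.61 for Tarbp2, while knockdown B stays between -0.16 and 0.27 except for Tarbp2 at 0.47.

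The knockdown libraries did not repeat each other. Against the control mean, knockdown A was lower for Dgcr8 (-0.80), Drosha (-0.78), Ago2 (-0.66), Tnrc6a (-0.61), Lin28b (-0.52) and Dicer1 (-0.37) on the log2(FPKM + 1) scale. For the same genes knockdown B stood at 0.19, 0.27, -0.16, 0.06, -0.0090 and 0.06. In all 6 knockdown A was below both controls and knockdown B was not, a pattern found at 25.4% of all tested loci, and the opposite pattern, at 12.6% of loci, was found in Xpo5 alone. The median of the 9 genes, relative to the mean of the controls, was -0.52 in knockdown A and 0.06 in knockdown B, and that of all tested loci -0.04 and 0.0060. Over the 4293 loci within the range of mean level of the 9 it was -0.01 and 0.0090. In 5 near-equal length groups of these loci, from the shortest to the longest, the median of knockdown A was 0.06, 0.02, 0.07, -0.02 and -0.12. The longest group held Ago2, Tnrc6a, Lin28b and Dicer1, and also Ago1 and Xpo5, for which knockdown A stood at 0.10 and 0.08. Dgcr8 and Drosha, with the lowest values of knockdown A, were in the group between 3505 and 4932 bp, and Tarbp2 was in the shortest. The part of length and of the depth of knockdown A in these values was not tested.

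The controls differed from each other too. Control B was lower than control A for Drosha (-0.62), Ago2 (-0.60) and Tnrc6a (-0.54), and higher for Lin28b (0.33), while Dgcr8, Xpo5 and Tarbp2 differed by at most 0.04. The fold changes of Drosha, Dgcr8, Dicer1 and Tnrc6a changed sign when knockdown A was left out, and stood at 0.27, 0.19, 0.06 and 0.06 on the log2 scale. Without control A Drosha stood at 0.06, and without knockdown B Xpo5 stood at 0.08. The signs of Tarbp2, Ago1, Ago2 and Lin28b held in each of these fits, with Ago2 between -0.71 and -0.11 and Lin28b between -0.51 and -0.0088. The 95% intervals of the 9 genes had a median half-width of 0.80, against 0.90 over all tested loci.

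**Figure D4:**
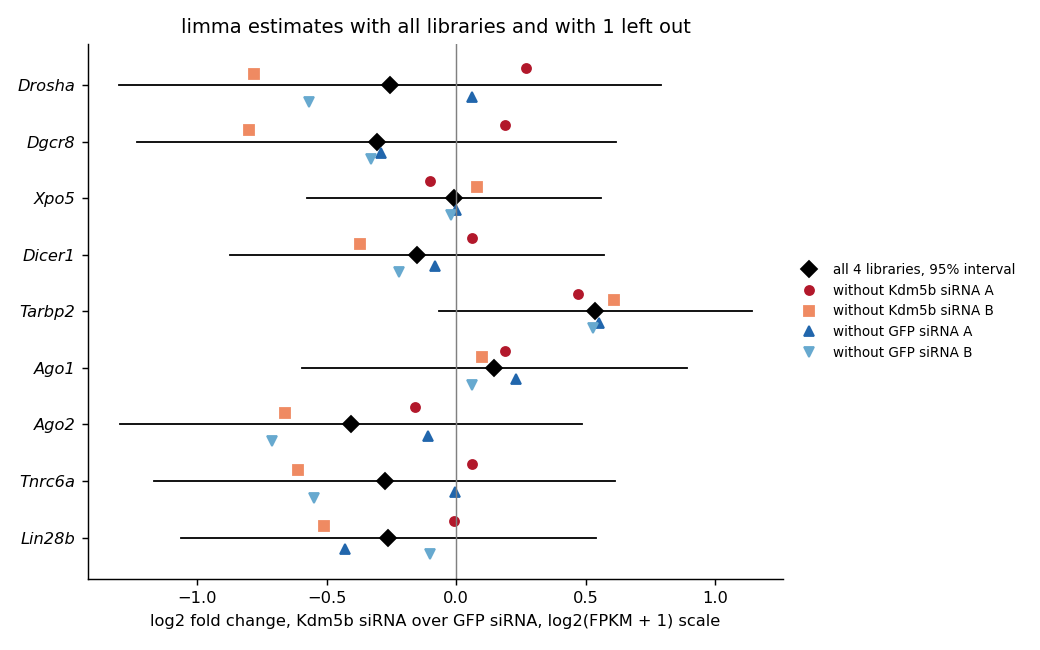
limma log2 fold change of knockdown (Kdm5b siRNA) over control (GFP siRNA) on the log2(FPKM + 1) scale for the 9 genes: black diamonds and lines are estimates and 95% intervals from the 4 libraries, coloured symbols the estimate with 1 library left out. All 9 intervals include 0, and the values without knockdown A lie to the right of 0 for Drosha, Dgcr8, Dicer1, Tarbp2, Ago1 and Tnrc6a.

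By profile over the 4 libraries, the nearest other tested locus was Ppp1r11 for Ago1, Zfp729a for Ago2, Stau1 for Dicer1, Ccdc92b for Drosha, Ufm1 for Dgcr8, Fem1c for Xpo5, Tle1 for Tarbp2, Tpbg for Tnrc6a and Brcc3 for Lin28b. The root mean square differences of the centred log2 values ran between 0.00904 for Xpo5 and 0.026 for Tarbp2, over 11076 named loci. Profiles of 4 libraries are not distinctive: 37 loci lay within 0.1 of Drosha and 600 within 0.1 of Xpo5. Tle1 stood at 14.4 and 12.6 FPKM in knockdowns A and B, against 8.66 and 8.78 FPKM in the controls.

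Of 63 further genes of the pathway on 7 lists, 62 were found, 60 were tested and 0 were called by limma, with 0 at an unadjusted p under 0.05. Of these 60, 28 had a positive and 32 a negative estimate, with a median log2 fold change of -0.04, against -0.03 over all tested loci. Both knockdown libraries lay above both controls for 9 and below them for 13, where 15.0% and 16.9% of all tested loci did. The 25 silencing effectors, the deadenylases, decapping factors and Argonaute partners that act on the target RNA, had a median of -0.22 with 17 on the lower side. Cnot3, a subunit of the CCR4-NOT deadenylase, stood at 0.977 and 11.0 FPKM in knockdowns A and B, against 11.7 and 9.89 FPKM in the controls, with knockdown A alone low (log2 fold change -1.27, standard error 0.82). Mov10, an RNA helicase bound to Argonaute, stood at 25 and 50.5 FPKM in knockdowns A and B, against 60.4 and 57.2 FPKM in the controls (log2 fold change -0.71, standard error 0.36). Xrn1, the exonuclease that degrades decapped RNA, stood at 3.76 and 13.9 FPKM in knockdowns A and B, against 13.65 and 10.3 FPKM in the controls. Its log2 fold change was -0.61 (standard error 0.57). The decapping factor Dcp1b stood at 0.583 and 4.005 FPKM, against 6.25 and 1.49 FPKM (log2 fold change -0.59, standard error 0.80). For Xrn1 and Dcp1b the groups overlapped. Without knockdown A the median of the silencing effectors was 0.02. Cnot3, Dcp1b, Adar, Nr6a1, E2f5, Rbl2, Srrt, Sox2 and Gata6 share their intervals with other loci, so their fragments may not be fully separated.

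The 8 Microprocessor and primary transcript cofactors had a median of 0.02, with 4 on each side. The median was -0.09 without control A, -0.18 without knockdown B, -0.05 with upper-quartile scaling and -0.0074 with quantile normalization. Ddx5, a helicase that works with Drosha, stood at 185 and 230 FPKM in knockdowns A and B, against 748 and 231 FPKM in control A and B, with control A far above the other 3 (log2 fold change -1.01, standard error 0.53). Srrt, known as Ars2, which ties the cap-binding complex to primary microRNA processing, stood at 160 and 126 FPKM in knockdowns A and B, against 71.1 and 114 FPKM in the controls (log2 fold change 0.65, standard error 0.30). The 5 export factors and Dicer partners had a median of -0.24, with the RNA-editing enzyme Adar at -0.54. Their median was 0.06 without control B and -0.46 without knockdown B. The 9 Argonaute loading chaperones had a median of 0.08 with 8 on the higher side, among them Hspa8 at 0.36 and Dnaja2 at 0.34. The median of the chaperones was -0.04 without control A, 0.18 without control B and 0.27 without knockdown B. The 5 genes of let-7 control had a median of -0.17, with Dis3l2, the nuclease that degrades blocked let-7 precursors, at -0.82 (standard error 0.45) and the uridylyl transferase Tut4 at -0.18, and their median was -0.10 without control A. The 6 turnover genes had a median of 0.21, with 5 on the higher side. Both knockdown libraries were above both controls for 4 and below for 1, against 15.0% and 16.9% of all tested loci. Among them the poly(A) polymerase Tent2 stood at -0.59 and the deadenylase Parn at 0.34. The median of the turnover genes was 0.09 without control A and 0.32 without control B. The 2 tested genes among other Argonaute and Piwi proteins, Ago3 and the germline gene Piwil2, had a median of -0.08. It was 0.03 without knockdown A, -0.18 without knockdown B and 0.12 with quantile normalization. Piwil1 stood at 1.21 and 0.188 FPKM in knockdowns A and B, against 1.15 and 0.247 FPKM in the controls.

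**Figure D5:**
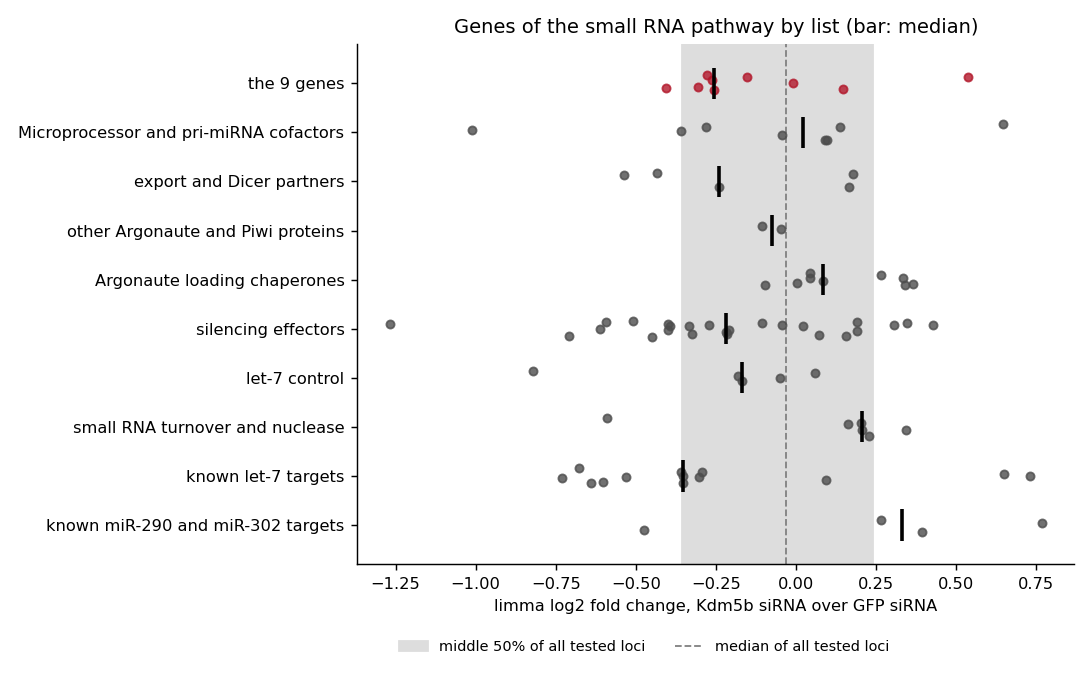
limma log2 fold change (knockdown, Kdm5b siRNA, over control, GFP siRNA) of each tested gene by list, with a black bar at each list's median; the grey band is the middle 50% of all tested loci and the dashed line their median. The median of the 9 genes is at -0.26, with Tarbp2 at 0.54 and Ago2 at -0.41 as its extremes, and no gene shown passed the limma threshold.

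The products of the pathway were seen only as far as their primary transcripts, since mature microRNAs are far shorter than the sheared fragments of 300 bp. The locus of the miR-290 cluster (mm9 chromosome 7, 3218784 to 3221016; listed under Mir291a, Mir291b, Mir292, Mir293, Mir294 and the noncoding transcript D7Ertd143e) was the clearest of them. It had 83.5 and 75.3 FPKM in knockdowns A and B, against 134 and 119 FPKM in control A and B, 62.7% of the control mean. The groups did not overlap, and the estimate was -0.67 on the log2 scale (standard error 0.22, 95% interval -1.19 to -0.14), with an unadjusted limma p of 0.0213 and a limma adjusted p of 0.918, so it did not pass the test. It ranged between -0.76 and -0.58 with 1 library left out. The value mixes a long transcript with hairpin entries shorter than a fragment, and the locus overlaps Mir292b. Mir17hg stood at 24.2 and 14.2 FPKM in knockdowns A and B, against 19.2 and 30.3 FPKM in the controls, and Mcm7, whose interval holds Mir106b, Mir93 and Mir25, at 170 and 164 FPKM, against 195 and 167 FPKM. The Mir17hg locus is also listed under the hairpin Mir19b-1, so its value too mixes a transcript with a hairpin entry shorter than a fragment.

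Mature 3p sequences of 4 microRNAs of the miR-290 locus are shown with those of the let-7 genes that had any value above 0, from RefSeq (GRCm38.p6), 5′ to 3′ with the seed, bases 2 to 8, in capitals. They are the products of the locus that had both knockdown libraries below both controls, and the family on which Lin28b acts. Those of the miR-290 locus lie on the plus strand, between miR-291a-3p at chr7:3218968-3218989 and miR-294-3p at chr7:3220691-3220712. The let-7 sequences lie at chr13:48536078-48536099 on the minus strand for let-7d, chr9:106178846-106178867 on the plus strand for let-7g and chr10:122985698-122985719 on the minus strand for let-7i.
miR-291a-3p: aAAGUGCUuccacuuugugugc
miR-294-3p: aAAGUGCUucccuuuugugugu
miR-291b-3p: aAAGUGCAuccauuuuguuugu
miR-293-3p: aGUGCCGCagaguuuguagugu
let-7d-5p: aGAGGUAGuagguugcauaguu
let-7g-5p: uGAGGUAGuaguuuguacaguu
let-7i-5p: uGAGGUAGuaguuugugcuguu
The first pair share 1 seed, miR-291b-3p and miR-293-3p have one each, and the 3 let-7 sequences share another. As separate loci 26 hairpins of these families and of the miR-17 and miR-106b clusters were listed, of which 17 stood at 0 in all 4 libraries, among them all 5 of the miR-302 cluster and 8 of 11 let-7 loci. Mirlet7g and Mirlet7i were above 0 only in knockdown B, at 357 and 399 FPKM, and Mirlet7d only in control B, at 70.0 FPKM. Values of hairpins shorter than a fragment are unstable, and a listed 0 can be a failed estimate, so no direction is read from them.

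Known targets of these microRNAs were described as 2 lists. Of 13 known let-7 targets all were tested and 0 called, with 10 on the lower side and a median log2 fold change of -0.35, where 6229 of all 11784 tested loci were on the lower side. Both knockdown libraries were below both controls for 7 of the 13, against 16.9% of all tested loci. This median was -0.52 without control B, -0.24 without knockdown A and in between without either of the others. Nr6a1, a germ cell nuclear receptor, stood at 9.04 and 18.2 FPKM in knockdowns A and B, against 25.4 and 19.1 FPKM in the controls, and the GTPase Nras at 25.6 and 37.4 FPKM, against 55.0 and 45.5 FPKM. On the other side E2f5, a cell cycle transcription factor, stood at 31.2 and 21.7 FPKM in knockdowns A and B, against 13.6 and 17.2 FPKM in the controls, and the cyclin Ccnd1 at 36.5 and 42.8 FPKM, against 16.9 and 36.1 FPKM. E2f5 and Ccnd1 had log2 fold changes of 0.73 and 0.65, and Nr6a1 and Nras of -0.73 and -0.68. Of 7 known targets of the miR-290 and miR-302 families 4 were tested and 0 called. The median of the 4 was 0.33, with 3 on the higher side. It was 0.18 without knockdown A, 0.49 without knockdown B and 0.52 with the filter at 5 FPKM, which left 2 genes. Ei24 and Cdkn1a had both knockdown libraries above both controls, 2 of the 4 tested genes against 15.0% of all tested loci. Lats2 and Dkk1, below the filter and not tested, had both knockdown libraries below both controls. Dkk1 rested on an estimated 0, 1.08, 3.24 and 9.73 fragments in knockdown A and B and control A and B. Lats2 rested on 13.1, 19.3, 26.1 and 21.3 in that order. Irf2, also not tested, was above 0 in knockdown B alone, with an estimated 0.999 fragments. Because the untested genes rest on few fragments, no direction is read for the list as a whole. Ei24, a p53-induced gene, stood at 107 and 80.2 FPKM in knockdowns A and B, against 48.7 and 59.8 FPKM in the controls (log2 fold change 0.77, standard error 0.26, unadjusted limma p of 0.0241 and limma adjusted p of 0.918). Rbl2, a retinoblastoma-like repressor, stood at -0.47.

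Double-stranded RNA is also read by sensors of the interferon response. The RNA sensor Ddx58 stood at 10.6 and 10.2 FPKM in knockdowns A and B, against 9.11 and 11.1 FPKM in the controls, about the level of Ago1. Of 11 genes of this response 5 were tested and 0 called, with a median of -0.50 and a summed level of 23.4 and 29.1 FPKM in knockdowns A and B, against 33.8 and 34.8 FPKM in the controls. Of the 5 tested, 3 had both knockdown libraries below both controls and 0 above, where 16.9% and 15.0% of all tested loci did. Ifit1, below the filter and not tested, was above both controls in both knockdown libraries. It stood at 0.744 and 0.482 FPKM in knockdowns A and B, against 0 and 0.190 FPKM in the controls. These values rest on an estimated 5.96, 5.02, 0 and 2.0 fragments in that order. Ifnb1 and Ifit3 were listed at 0 in all 4 libraries. Stat2, a transcription factor of the response, had 3.96 and 6.11 FPKM in knockdowns A and B, against 9.49 and 8.34 FPKM in the controls (log2 fold change -0.74, standard error 0.37), and Oas1a was listed at 0 in knockdown A. Of other cell type markers, 6 endoderm genes summed to 2.59 and 2.91 FPKM in knockdowns A and B, against 10.7 and 14.9 FPKM in the controls. Cubn was the largest part of the control sums, at 4.23 and 7.39 FPKM, against 0.272 and 0.338 FPKM in knockdowns A and B. Of the 4 tested endoderm genes 3, Cubn, Dab2 and Gata4, had both knockdown libraries below both controls, against 16.9% of all tested loci. Dab2 and Gata4 were listed at 0 in knockdown A and rested on an estimated 17.7 and 17 fragments in knockdown B. Sox17, below the filter and not tested, also had both below. It rested on an estimated 0 and 4.01 fragments in knockdowns A and B and 6.99 in each control. Gata6 did not have both below, at 2.32 and 0.0785 FPKM in knockdowns A and B, against 1.81 and 2.09 FPKM. Gata6 made up most of the knockdown A sum. The 5 trophoblast genes summed to 6.2 and 15.7 FPKM in knockdowns A and B, against 40.0 and 14.9 FPKM in the controls, with Elf5 at 0 in 3 libraries. Most of this sum was Krt18, a keratin, at 3.28 and 12.15 FPKM, against 38.5 and 12.35 FPKM. Gcm1 went the other way, at 2.31 and 1.28 FPKM, against 0.987 and 0.126 FPKM. The 4 neural genes summed to 49.2 and 44.3 FPKM, against 56.9 and 61.2 FPKM, most of it Tubb3. The 8 stem cell genes had a median log2 fold change of -0.05, with 0 called and Klf4 at -0.84 (unadjusted limma p of 0.014). Whether other cell types were present, and their part in the values of the 9 genes, was not tested.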

How the data were processed

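For the 4 libraries ribosomal RNA was removed and strand was marked with dUTP, per the labels' protocols. The authors deposited FPKM per locus and library, made with Cufflinks and Cuffdiff on the mm9 build per the submitters' processing notes; their versions, an aligner and any use of strand in counting are details not given in the sources, and overlapping genes may share fragments. Loci were named by RefSeq identifier with a GRCm38.p6 table, used for names, promoters and microRNAs (1 symbol for 23241 of 23697). Depth was estimated from steps between low values with GENCODE transcript lengths less 300 bp; the share of low values no more than 0.15 from a whole fragment was 76.7% to 81.6%. These estimates give no counting interval.

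Loci whose mean reached 1 FPKM were tested on log2(FPKM + 1), which understates changes of low genes, with limma 3.58.1 in R 4.3.3 (group alone, eBayes with trend), Benjamini-Hochberg adjusted over all 11784 loci, threshold 0.05, two-sided. The fit was also run on simulated counts with the same spread in every library. That run does not cover a library that stands apart, as knockdown A did. Lists are described by counts and medians. Alternatives were pseudocounts of 0.1 and 0.01, no filter or 5 FPKM, 3 scalings, other eBayes settings, the replicate letter as a block and each library left out. A sum over all loci of a symbol was also counted, and equals the main fit because each of the 9 genes has 1 locus. The members, lists and tests were chosen with earlier results of these data known. Named beside the 9 are their paralogs, list genes of largest absolute fold change, and the nearest profile. Promoters were scanned with Python 3.11.15.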

Additional observations from a re-analysis of the deposited data

How the results depend on the processing

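None of the 9 genes was called by limma under any of the 15 alternatives, and apart from fits that left out 1 library none changed the sign of a gene. With 1 library left out the log2 fold change ran between -0.78 and 0.27 for Drosha, -0.80 and 0.19 for Dgcr8, -0.37 and 0.06 for Dicer1, -0.61 and 0.06 for Tnrc6a, -0.10 and 0.08 for Xpo5, and -0.51 and 0.06 for the median of the 9. The count of loci called lower, 4 with all libraries, was 1 with no filter, 7 with the replicate letter as a block and 2 when eBayes had no trend, and ran between 0 and 119 with 1 library left out; loci called higher ran between 0 and 15. The 119 were called without knockdown B, where knockdown A stands alone and is assumed to vary like the controls. The labels do not say what the letters stand for, and over 11784 loci the deviations of the A libraries correlated at -0.07, so the letters were not taken to pair the libraries. In this balanced layout the block cannot alter a fold change. The filter and the eBayes settings cannot alter it either, nor can the sum over loci of a symbol here. The unchanged signs in those fits therefore carry no information. Medians of the lists changed sign in 10 of 139 recomputed values. Scaling to equal medians was added after seeing the data. Depth limits the lowest genes, as for Ago4, with an estimated 1.02 to 10.2 fragments, and with 2 libraries a group the 95% intervals of all tested loci had a median half-width of 0.90 on the log2 scale.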
